A study of Homo sapiens with 6 samples.

Results

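RN7SK, RN7SL1, RN7SL2, NEAT1 and MALAT1 are 5 noncoding RNA genes that are strongly transcribed in most human cells, and the H3K9me3 peaks found over them in PC-3 cells are described here. The members are the peaks of 3 deposited H3K9me3 peak lists that overlap 1 of these genes, or the 2 kb on either side of it, by at least 1 bp. They number 25 of 2826 peaks, of which 10 of 1334 were in the untreated control, 11 of 1220 after 6 h of TGF-β1 and 4 of 272 after 24 h. The genes were selected on the positions and folds of peaks in these lists, so the presence of peaks and their folds are a description and carry no test.

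PC-3 is a long-established human cell line, grown from a bone metastasis of a prostate adenocarcinoma. All cells had been kept without serum for 24 h, and were then left untreated or exposed to the cytokine TGF-β1 (5 ng/mL) for 6 h or for 24 h. Crosslinked, sonicated chromatin was precipitated with an antibody against H3K9me3, the trimethylated form of lysine 9 on histone H3. Each condition had 1 ChIP library and 1 input library, so that differences between the lists have no replicate check.

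H3K9me3 is best known from constitutive heterochromatin, such as the satellite repeats beside centromeres, and is usually sparse over active genes. RNA polymerase III makes the 7SK RNA from RN7SK and the 7SL RNA from RN7SL1 and RN7SL2. The 7SK RNA holds the elongation factor P-TEFb in an inactive particle, and the 7SL RNA is the scaffold of the signal recognition particle, which directs nascent secreted proteins to the endoplasmic reticulum. RNA polymerase II makes NEAT1, the architectural RNA of nuclear paraspeckles, and MALAT1, an abundant RNA of nuclear speckles. NEAT1 yields a short and a long transcript that begin at the same start site. RN7SL1 and RN7SL2 have nearly the same sequence, and 7SK and 7SL also have many pseudogene copies, so the values at these genes are uncertain as to the copy they belong to. The sources used here do not give the treatment of reads that fit several copies.

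Promoter windows from RefSeq on GRCh38.p14, each 250 bases before to 50 after a start site, were matched for 1 of the 5 genes, MALAT1, which has 2 of them. They are shown because the peaks over MALAT1 begin well inside the gene, and the second start site lies 1307 bp past the first. The first is chr11:65497488-65497787 and the second chr11:65498795-65499094, both on the plus strand. Capitals mark the GC box motif, spelled GGGCGG, and the TATA element, which is spelled TATAAA, both searched on either strand.
MALAT1 first start: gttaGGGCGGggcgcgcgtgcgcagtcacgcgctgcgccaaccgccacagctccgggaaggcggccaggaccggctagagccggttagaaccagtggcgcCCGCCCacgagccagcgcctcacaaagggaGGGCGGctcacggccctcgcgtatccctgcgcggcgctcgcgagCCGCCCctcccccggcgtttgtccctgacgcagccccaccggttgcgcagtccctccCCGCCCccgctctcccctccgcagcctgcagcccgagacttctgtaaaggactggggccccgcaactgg
MALAT1 second start: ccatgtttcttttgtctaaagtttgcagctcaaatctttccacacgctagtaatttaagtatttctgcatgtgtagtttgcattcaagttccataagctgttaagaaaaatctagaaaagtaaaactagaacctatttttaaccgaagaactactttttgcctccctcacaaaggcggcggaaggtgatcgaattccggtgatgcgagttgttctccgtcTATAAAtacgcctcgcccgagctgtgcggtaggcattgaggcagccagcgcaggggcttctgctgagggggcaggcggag
The first window has a GC content of 73.7% and 5 matches to GGGCGG or its reverse complement CCGCCC, and none to TATAAA. The second has 46% GC, no match to GGGCGG, and 1 match to TATAAA, whose first base lies 30 bases before the start site. Among 35116 RefSeq windows of this length, the median GC content was 58.7%, 44.95% held GGGCGG and 11.5% held TATAAA, on either strand.

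For each peak the authors' lists give a fold enrichment, a linear ratio of the pileup (the number of ChIP fragments over the summit) to the local background that the caller expected there, each with 1 added, and a −log10 q. The whole-number pileup and the local background were solved from the fold and the −log10 p, and both are given as multiples of the lowest local background of the same list, taken as its genome-wide level. That level was 1.89 fragments in the control. In the treated lists it was 1.73 (6 h) and 2.66 (24 h). All 25 peaks gave a whole pileup. Intervals of pileups are exact 95% Poisson intervals and cover counting error only. Folds, and the multiples derived from them, belong each to its own list, and a difference between lists does not measure a change in H3K9me3. Only the treated lists have a word for filtering in their peak names. It was not established that all lists were made in the same way. Whether the caller drew the local background from the input library or from the ChIP library itself is also unknown. Contrasts in local background between lists can therefore not be assigned to either library.

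RN7SK, at chr6:52860418-52860749 on hg19, had a peak in the control and at 6 h, and none at 24 h. The control peak, at chr6:52860477-52860657, was 181 bp wide and lay inside the 332 bp gene. Its fold was 3.26, at rank 954 of 1334, below the list's median of 3.83. The 6 h peak, at chr6:52860432-52860712, was 281 bp wide and also lay inside the gene, from 14 bp after its lower-numbered end to 37 bp before its other end. Its fold was 23.02, at rank 2 of 1220, where the median of the list was 4.10. The control and 6 h summits lay 1 bp apart.

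The pileups at the RN7SK summit were alike as multiples and the local backgrounds were not. In the control the pileup was 224 fragments (196 to 255), or 119 times the genome-wide level, over a local background of 36.0 times. At 6 h it was 221 fragments (193 to 252), or 128 times, over a local background of 5.01 times. The local background at 6 h was lower than that of the control, though above the median of 1.42 times over the 6 h peaks, and the intervals of the pileups overlapped. By −log10 q the peaks ranked 131 of 1334 in the control, at 45.1, and 12 of 1220 at 6 h, at 215.6. The nearest 24 h peak lay 5.92 Mb away and was the only peak of that list on chromosome 6. The nearest other peak was 5.92 Mb away in the control and 1.32 Mb away at 6 h. Peaks on chromosome 6 were few, with 24 of the control list and 21 of the 6 h list. Whether RN7SK lay farther from its neighbours than other peaks do was not tested.

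RN7SL1, at chr14:50053297-50053596, and RN7SL2, at chr14:50329271-50329567, each had a peak at 6 h and at 24 h and none in the control. At 6 h both peaks were 278 bp wide and filled the genes almost from end to end. The RN7SL1 peak, at chr14:50053310-50053587, covered 92.7% of the gene and began 13 bp and ended 9 bp inside its ends. The RN7SL2 peak, at chr14:50329278-50329555, covered 93.6% and began 7 bp and ended 12 bp inside. At 24 h the peaks were narrower and lay within those of 6 h, covering 66.3% of RN7SL1 from 50053351 to 50053549, and 67.3% of RN7SL2 from 50329311 to 50329510. Summits at 6 h and 24 h lay 22 bp apart in RN7SL1 and 2 bp apart in RN7SL2.

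The fold of RN7SL1 was 9.80 at 6 h, at rank 13 of 1220, and 3.49 at 24 h, at rank 102 of 272. For RN7SL2 it was 9.92 at 6 h, at rank 12, and 2.39 at 24 h, at rank 197, below the 24 h median of 3.09. The copies thus stood side by side in the 6 h list and apart in the 24 h list. Their −log10 q at 6 h was 126.9 for RN7SL1 and 192.2 for RN7SL2, at ranks 18 and 13, and at 24 h it was 31.9 and 24.96, at ranks 87 and 101.

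The summit pileup at RN7SL1 was 211 fragments at 6 h (183 to 241), or 122 times the genome-wide level, and 148 at 24 h (125 to 174), or 55.6 times. At RN7SL2 it was 317 fragments at 6 h (283 to 354), or 184 times, and 223 at 24 h (195 to 254), or 83.8 times. RN7SL2 had the higher pileup of the copies in both lists, with intervals that do not overlap. Local backgrounds were 11.95 times the genome-wide level at 6 h and 15.7 times at 24 h for RN7SL1, and 17.99 and 34.8 times for RN7SL2. The copy with the higher pileup also had the higher local background in both lists. How reads were divided between the copies was not tested, and RN7SL1 and RN7SL2 cannot be taken as separate observations.

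The control list had its nearest peak 771 kb from RN7SL1 and 806 kb from RN7SL2. Without a called peak a list gives no pileup, so the signal at these genes in the control, and at RN7SK at 24 h, is not known. At 6 h the neighbours were closer, with another peak 36.2 kb from RN7SL1 (fold 3.32) and 229 kb from RN7SL2 (fold 3.45).

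**Figure D1:**
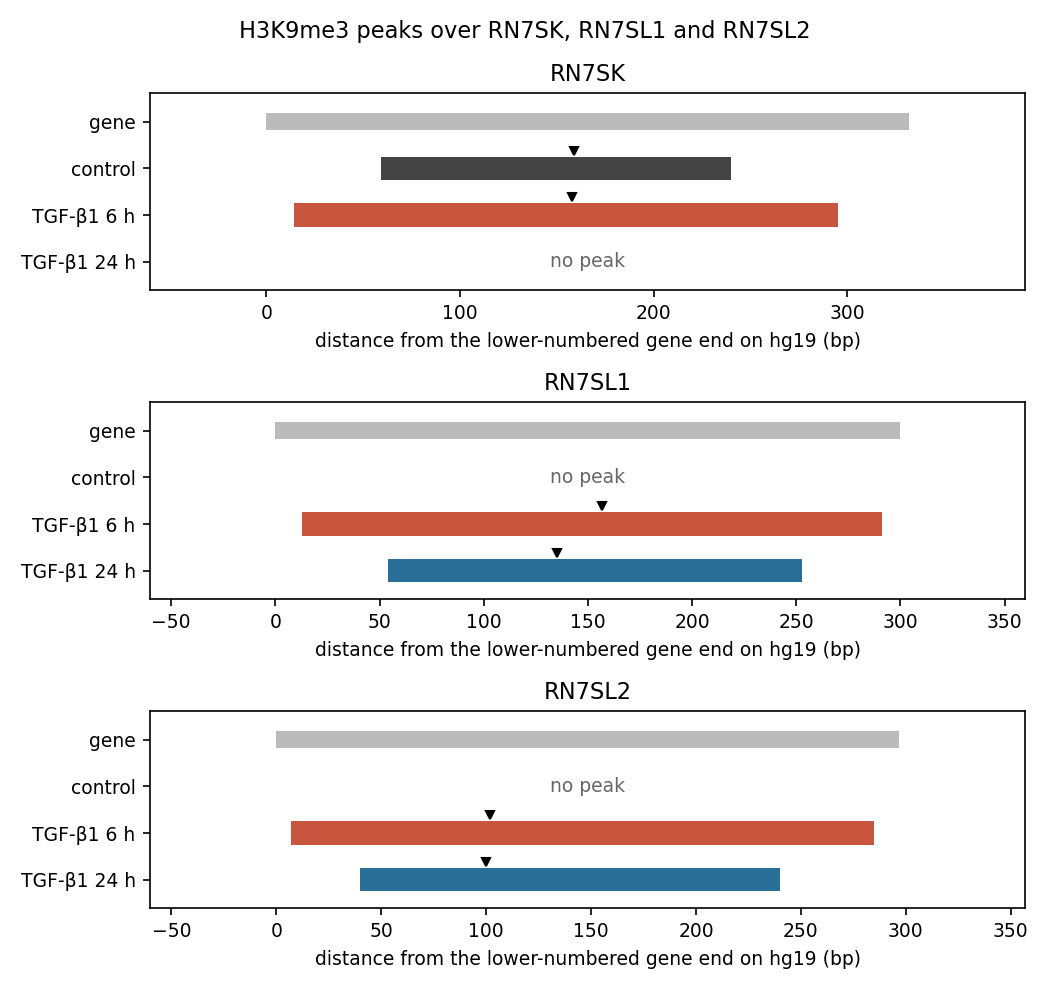
Peaks over RN7SK, RN7SL1 and RN7SL2, as distance in bp from the lower-numbered gene end on hg19. The grey bar is the gene, each coloured bar is a peak of 1 list and the triangle is its summit. Every peak lies inside its gene, and the 6 h peaks are the widest, at 281 bp over RN7SK and 278 bp over each 7SL gene.

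NEAT1, at chr11:65190269-65213011, is 22743 bp long and had peaks in every list, with 5 in the control, 6 at 6 h and a single one at 24 h. A peak at its lower-numbered end, where transcription starts, was common to the lists. It began 45 bp into the gene in the control (chr11:65190314-65191099), 60 bp at 6 h (chr11:65190329-65190973) and 63 bp at 24 h (chr11:65190332-65190735). The left edges thus lay within 18 bp of each other, and the right edges, 830, 704 and 466 bp into the gene, were spread more widely. The summits at 6 h and 24 h lay 8 bp apart, and that of the control 57 and 65 bp from them.

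The start site peak was the strongest of NEAT1 by fold in each list. Its fold was 5.74 in the control, at rank 105 of 1334, 5.93 at 6 h, at rank 43 of 1220, and 6.05 at 24 h, at rank 5 of 272. The −log10 q was 27.4, 10.3 and 20.6. The control pileup was 71 fragments (55.5 to 89.6), the 6 h pileup 28 (18.6 to 40.5) and the 24 h pileup 52 (38.8 to 68.2), which are 37.6, 16.2 and 19.5 times the genome-wide level. Local backgrounds were 6.12, 2.26 and 2.92 times. Pileup and local background were both highest in the control here, and the folds of the lists were close.

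The next NEAT1 peaks of the control and 6 h lists ran in parallel. The second peak began 1105 bp into the gene in the control and 1134 bp at 6 h, with summits 65 bp apart and folds of 3.06 and 4.0. The third began at 2398 and 2380 bp, with summits 39 bp apart and folds of 3.31 and 4.20. The fourth was at 3897 to 4620 bp in the control (fold 3.11) and at 3324 to 4383 bp at 6 h (fold 4.94), with summits 473 bp apart. All 4 peaks of the control and of 6 h in the first 5 kb formed overlapping pairs, and none of these pairs beyond the first had a 24 h peak.

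Farther into NEAT1 the lists parted. The fifth control peak, 303 bp wide, began 7137 bp into the gene (fold 3.26, −log10 q 3.19). At 6 h the fifth began at 17053 bp (fold 3.80, −log10 q 2.07) and the sixth at 20071 bp (fold 4.81, −log10 q 3.87). Their pileups were 24 fragments in the control and 14 and 16 at 6 h, and none overlapped a peak of another list. From 7439 to 17053 bp no list had a peak. Of the gene's length, control peaks covered 11.4%, 6 h peaks 15.9% and the 24 h peak 1.78%.

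MALAT1, at chr11:65265233-65273940, is 8708 bp long in this window and had 4 control peaks, 2 peaks at 6 h and a single one at 24 h. The 6 h peaks covered the most of it. The first, at chr11:65266560-65271450, was 4891 bp wide, the widest of the 1220 peaks of that list, whose median width was 263 bp. The second, at chr11:65271818-65273487, was 1670 bp wide, the fifth widest. Together they covered 75.3% of the gene, against 18.4% for the control peaks and 7.80% for the 24 h peak. With the fourth NEAT1 peak, at 1060 bp, 3 of the 6 widest peaks of the 6 h list lay on these neighbouring genes.

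At 6 h the folds were 7.59 and 7.35, at ranks 22 and 23 of 1220, with −log10 q of 22.6 and 19.5. In the control the peaks inside the gene, at chr11:65266621-65267596, chr11:65267967-65268346 and chr11:65271265-65271509, had folds of 2.78, 2.68 and 2.88, at ranks 1109, 1127 and 1083 of 1334, and −log10 q of 7.10, 2.51 and 6.54. All 3 overlapped the wide 6 h peak, the last of them by 186 bp of its 245. The 24 h peak, at chr11:65267256-65267934, had a fold of 2.80, at rank 159 of 272, and a −log10 q of 3.26, and its 679 bp lay wholly within the wide 6 h peak. MALAT1 was thus among the high folds of the 6 h list and in the lower part of the other lists, each taken in full.

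The summit pileups at MALAT1 did not follow the folds. In the control they were 57 fragments (43.2 to 73.9), 30 (20.2 to 42.8) and 50 (37.1 to 65.9) at the peaks inside the gene, or 30.2, 15.9 and 26.5 times the genome-wide level. At 6 h they were 46 (33.7 to 61.4) and 41 (29.4 to 55.6), or 26.7 and 23.8 times. The 24 h pileup was 35 (24.4 to 48.7), or 13.1 times. Local backgrounds at these control peaks were 10.5, 5.60 and 8.84 times, at the 6 h peaks 3.01 and 2.73 times, and at 24 h 4.45 times. As at RN7SK, the local backgrounds at 6 h were lower than those of the control peaks inside the gene, and the pileups were in the range of the control's.

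No list had a peak in the first 1327 bp of MALAT1. The first peak began 1388 bp into the gene in the control, 1327 bp at 6 h and 2023 bp at 24 h, where the second RefSeq start site lies 1307 bp past the first. The gene is 8779 bp long in the RefSeq table on GRCh38 and 8708 bp in the hg19 window, so the offsets are counted from ends that may differ, and they were not aligned between builds. At the other end, the second 6 h peak stopped 453 bp short of the gene's end. The fourth control peak, at chr11:65274490-65274826, lay outside the gene, past its higher-numbered end, and belongs to the members through the 2 kb flank (fold 3.65, −log10 q 5.36). It was the one member peak outside a gene body. The nearest peak beyond any flank was in the control, 9229 bp past NEAT1, with a fold of 3.51.

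**Figure D2:**
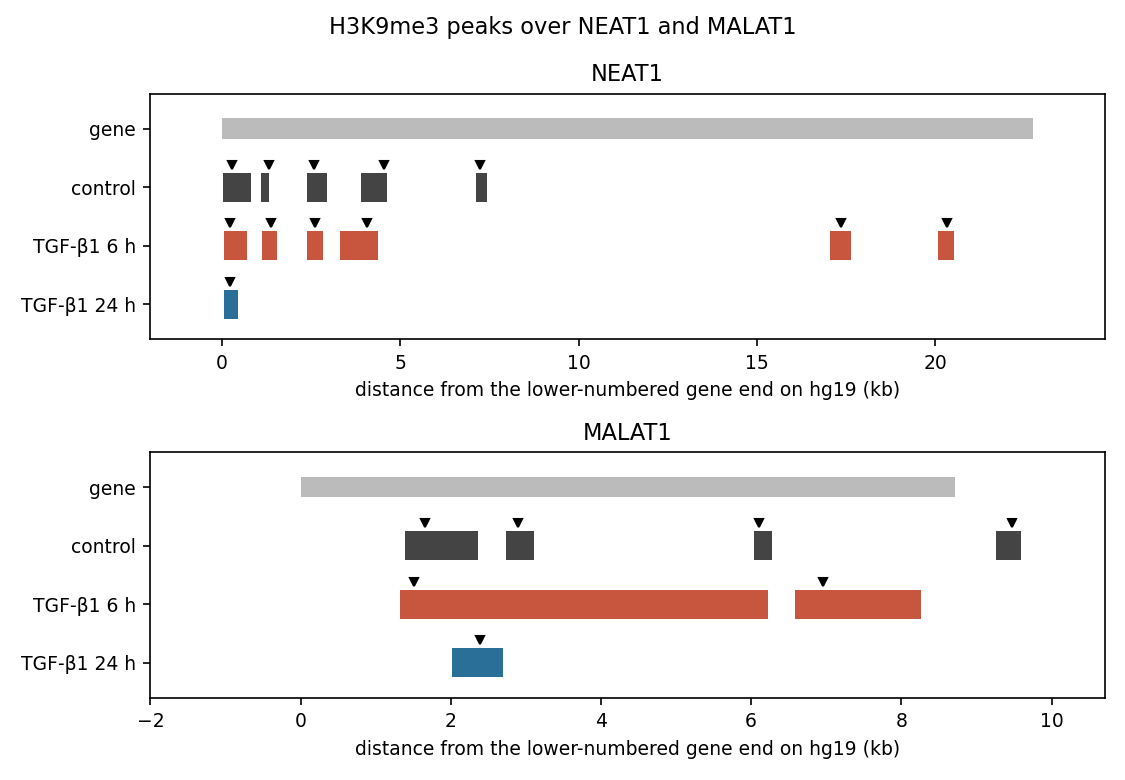
Peaks over NEAT1 and MALAT1, as distance in kb from the lower-numbered gene end on hg19, with the gene in grey, the peaks of each list in colour and summits as triangles. At NEAT1 every list has a peak at the start, and at MALAT1 the 6 h peaks cover 75.3% of the gene while its first 1327 bp have no peak in any list.

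As a group, the member peaks overlapped peaks of other lists as follows, with the share for all peaks beside each count. Of the 10 control peaks, 8 overlapped a 6 h peak (5.02% of all control peaks did) and 2 a 24 h peak (9.82%). Of the 11 peaks at 6 h, 6 overlapped a control peak (5.25%) and 4 a 24 h peak (3.77%). Of the 4 peaks at 24 h, 2 overlapped a control peak (51.5%) and all 4 a 6 h peak (17.3%). The genes were chosen with these lists in view and peaks of a gene are neighbours, so the counts are descriptive. Merged over the lists, the member peaks formed 13 regions of 2614. The start of NEAT1 and the main part of MALAT1 were 2 of the 42 regions found in all lists, and RN7SL1 and RN7SL2 were 2 of the 4 regions found at 6 h and 24 h alone. RN7SK and 3 NEAT1 regions were among the 22 found in the control and at 6 h alone. The remaining member regions were in 1 list only. They were 3 of the 1152 regions found at 6 h alone, 2 on NEAT1 and 1 on MALAT1. In the control alone they were 2 of 1177, 1 each at NEAT1 and MALAT1.

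Within their lists the member peaks stood at different heights, which are a description because folds entered the choice of the genes. At 6 h, 9 of 11 had a fold at or above the list's median, with a median of 5.93 against 4.10 for all peaks, and 6 were among the 122 peaks of the highest fold. In the control, 1 of 10 was at or above the median, with a median of 3.18 against 3.83, and 1 was among the 134 peaks of the highest fold, the one at the start of NEAT1. At 24 h, 2 of 4 were, with medians of 3.14 and 3.09. A −log10 q of at least 5 was reached by 5 of 10 in the control (41.3% of all control peaks), 7 of 11 at 6 h (8.85%) and 3 of 4 at 24 h (60.3%).

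The local background of each member peak was set against 5 times the genome-wide level of its list. It was at least 5 times the genome-wide level in 6 of the 10 control peaks (32.5% of control peaks with a solved pileup), namely at RN7SK, at the 3 peaks inside MALAT1 and at 2 NEAT1 peaks. At 6 h it was so in 3 of 11 (4.15%), at RN7SK, RN7SL1 and RN7SL2, and at 24 h in 2 of 4 (52.5%), at RN7SL1 and RN7SL2. RN7SK at 6 h was only just above the cut, at 5.01 times. The 24 h count is near the share of its list, where the median local background was 5.71 times. The other 47 peaks at 6 h with such a background had a median fold of 2.52 and a highest fold of 15.9, which lies between those of the 7SL genes and RN7SK. In the control the other 421 had a median fold of 2.82 and a highest of 8.89. There 1 of the 6 member peaks and 64 of the 421 were at or above the list's median fold. At 24 h the other 126 had a median of 2.52 and a highest of 5.10, and 1 of the 2 member peaks and 33 of the 126 were at or above it. Since folds entered the choice of the genes, these values are given as a description.

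**Figure D3:**
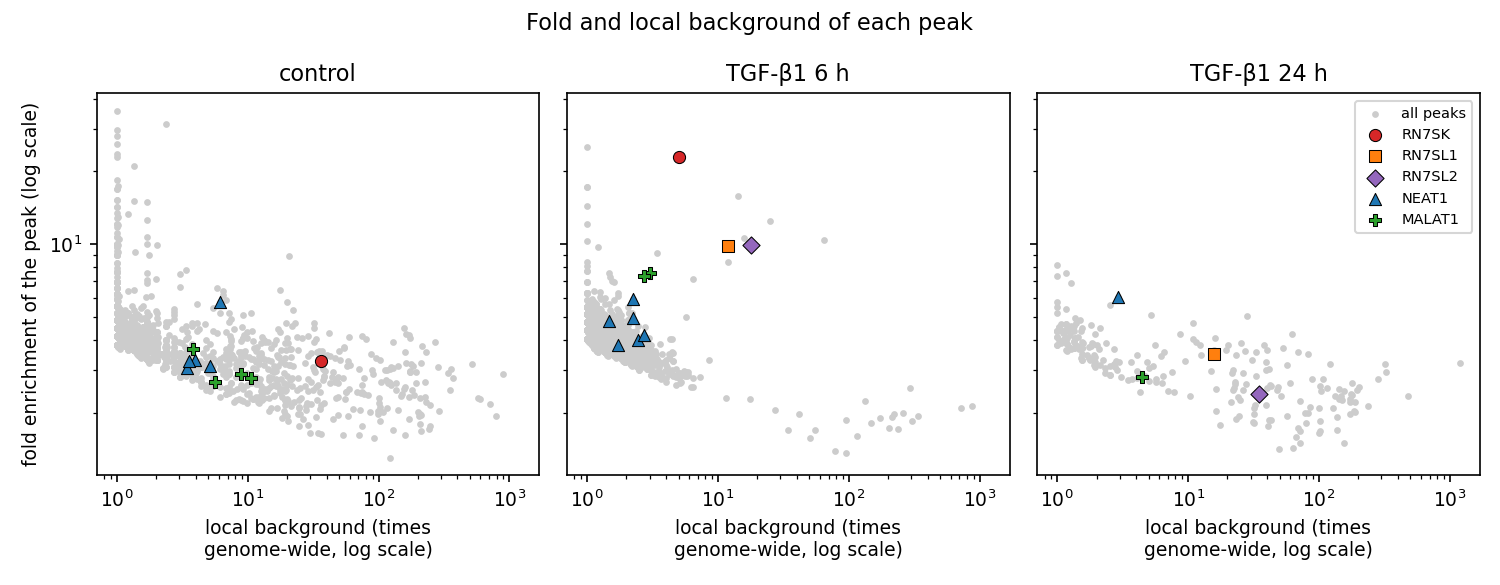
Fold enrichment of each peak against its local background in multiples of the genome-wide level, both on log scales, for the control, 6 h and 24 h lists. Grey points are all peaks with a whole pileup and coloured symbols are the member peaks. At 6 h RN7SK (23.02), RN7SL1 (9.80) and RN7SL2 (9.92) have local backgrounds of 5.01, 11.95 and 17.99 times, and in the control RN7SK (3.26) has 36.0 times.

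The local background of overlapping peaks was set side by side between lists. In all 8 member pairs of the control and 6 h lists the multiple was lower at 6 h, with a ratio of 6 h to control between 0.139 at RN7SK and 0.714 at the second NEAT1 peak, and a median of 0.403. There were 59 other overlapping pairs, and 40 of them had solved values. Of these 40, 18 were lower at 6 h, with a median ratio of 1.04 and a range of 0.117 to 1.77. The pileup ratio was between 0.431 and 1.68 with a median of 0.963 in the member pairs, and had a median of 0.867 in the others. The pileup multiple was lower at 6 h in 5 of the 8 member pairs and in 28 of the 40 others with solved values. The 8 pairs share their libraries, and 3 of them share the wide MALAT1 peak. Each local background belongs to its summit. Summits lay a median of 108 bp apart in the member pairs, up to 4592 bp at MALAT1. In the 59 other pairs the median was 18 bp and the highest 604 bp. Some member ratios thus compare different positions in a gene. In the 4 member pairs of the 6 h and 24 h lists the multiple of the local background was higher at 24 h, by ratios of 1.29 to 1.94, and 3 of the 4 had a lower pileup multiple at 24 h. The exception was NEAT1, with a pileup ratio of 1.2. Of the other 43 overlapping pairs of these 2 lists, 21 had solved values. Among those 21, the local background multiple was lower at 24 h in 13, with a median ratio of 0.921. The pileup multiple was lower at 24 h in 10 of them, with a median ratio of 1.01.

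**Figure D4:**
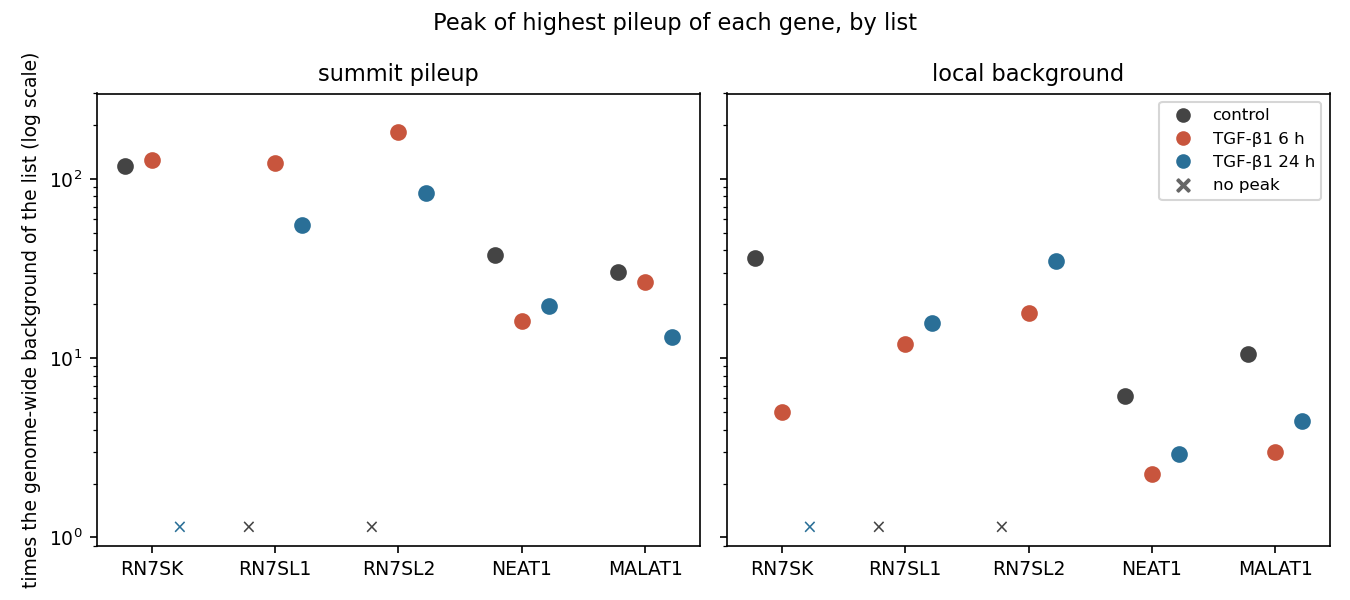
Summit pileup (left) and local background (right) in multiples of each list's genome-wide background, on a log scale, for the peak of highest pileup of each gene. Each point is 1 peak of 1 library, and a cross marks a gene with no peak in that list. RN7SK has similar pileups in the control (119) and at 6 h (128) over local backgrounds of 36.0 and 5.01, and the 7SL genes have higher pileup multiples at 6 h (122 and 184) than at 24 h (55.6 and 83.8) and lower local background multiples (11.95 and 17.99 against 15.7 and 34.8).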

How the data were processed

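The 3 deposited peak lists, 1 per ChIP library and not pooled, have 10 columns and no header. Per the submitters' processing notes, the build was hg19 (GRCh37) and the tools named are MACS2 2.1.1.20160309, BWA, Trimmomatic and FastQC 0.11.9. Neither their roles nor the caller's threshold is given in the sources used here. The deposited values are a score (in every peak the whole part of 10 times −log10 q), a fold (linear ratio), −log10 p and −log10 q, and the summit offset. Each list was tied to a sample by its name, which matches the sample's title. Positions are 1-based on hg19, and gene positions came with the choice of genes.

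For every peak, the Poisson tail that MACS2 uses gave the pileup and local background from the fold and −log10 p. The step was checked on simulated peaks made by the same formulas, so the check covers the arithmetic only. Simulated folds stayed below those of RN7SK, RN7SL1 and RN7SL2 at 6 h. Where the deposited digits fixed the pileup to within 0.2 fragments, it was whole, within 0.01, in 98.7% (control), 98.9% (6 h) and 90.7% (24 h) of peaks, where 2% would be by chance. Other pileups were left out. The lists give no read totals, so depth enters only through these values.

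The genes and all measures were chosen with earlier results of these data known. All 5 genes and every peak in their windows are named. No test was run, since there is 1 library per condition. Alternatives were a −log10 q of at least 5, folds at or above the list median, other flanks and overlap, an unrounded pileup, and the most frequent local background. A planned list of other noncoding RNA genes needed genes on hg19 and was not run. Python 3.11.15, numpy 2.4.6, pandas 2.3.3, scipy 1.17.1 and matplotlib 3.10.9 were used.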

Additional observations from a re-analysis of the deposited data

How the results depend on the processing

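No paired analysis was possible because there was only 1 ChIP library in every condition. At a −log10 q of 5 or more, 5 member peaks were left in the control, 7 at 6 h and 3 of the 24 h list. Cut at each list's median fold, they numbered 1 in the control, on 1 gene, 9 at 6 h, on 5 genes, and 2 at 24 h, on 2 genes. The other counts of peaks and of genes with a peak, under these settings, no flank, a flank of 10 kb and a window that holds most of the peak, stayed within 1.5 times the reported ones. All 25 local backgrounds stayed within counting error with the unrounded pileup and with the most frequent local background as the genome-wide level. With the latter, RN7SK at 6 h was at 4.997 times, just below the cut of 5 that it passed in the main setting. Ranked among the peaks at that −log10 q alone, 24 of 25 fold percentiles moved beyond their binomial interval, because the list they are ranked in changes. There RN7SK at 6 h was at the 99.07th percentile, RN7SL1 at the 88.9th and RN7SL2 at the 89.8th, against 99.9, 99.02 and 99.1 in the full list. The 6 h MALAT1 peaks went from 98.3 and 98.2 to 80.6 and 79.6. The NEAT1 start site peak at 6 h went from 96.6 to 61.1, the fourth from 88.1 to 36.1 and the sixth from 85.98 to 33.3. All 6 h percentiles fell. In the control and 24 h lists only the NEAT1 start site peaks fell, from 92.2 to 81.1 and from 98.5 to 97.6. The others rose, with RN7SK in the control going from 28.6 to 43.4 and RN7SL1 at 24 h from 62.9 to 75.6. MALAT1 at 24 h, in the lower part of its full list, went from 41.9 to 59.1. The lists hold called peaks only, so depth limits what can be said where a gene has none.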
